A study of Rattus norvegicus with 12 samples.

Results

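Amino acid and peptide transporters of the kidney proximal tubule were followed in renal cortex of 12 transplanted rat kidneys. Of the 10 genes named, Slc3a1, Slc3a2, Slc7a7, Slc7a8, Slc7a9, Slc6a18, Slc6a19, Slc6a20, Slc15a1 and Slc15a2, probe sets were taken where the platform annotation gave the gene alone. This found 9 genes with 10 probe sets among 31042 probe sets other than controls, which name 14217 genes. The annotation gave 8 of these probe sets under the gene's own symbol, and the other 2 under Slc6a20a, the present symbol of the rat gene formerly called Slc6a20. No probe set named Slc6a19, which was not analysed here. All grafts came from male rats, all recipients were wild type, and 6 grafts were wild-type and 6 ABCC2-/-, which lack MRP2, an apical export pump for organic anions and their conjugates. The sources used here do not state strain, age, the kind of mutation or the time after transplantation. They also do not say that each graft had a donor of its own, so p-values cover only the spread between these 12 cortex samples, part of which may be technical. The comparison asks what loss of the pump in the graft alone does to the graft, and here what it does to the transcripts of these carriers.

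The proximal tubule takes back nearly all filtered amino acids and small peptides. Carriers of the brush border bring them into the cell, and carriers of the basolateral membrane release them toward the blood. Several work as pairs of a heavy chain, which brings the complex to the membrane, and a light chain, which transports. Slc3a1 (rBAT) pairs with Slc7a9 at the brush border for cystine and dibasic amino acids, and loss of either causes cystinuria. Slc3a2 (the heavy chain of CD98) pairs at the basolateral side with Slc7a7 for dibasic and with Slc7a8 for neutral amino acids. Slc6a18 and Slc6a20 are sodium-coupled carriers for small neutral amino acids and for proline, and Slc15a1 and Slc15a2 are the proton-coupled carriers for di- and tripeptides, the first in the early and the second in the late proximal tubule.

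Promoters are shown for the pair that varied least between grafts, Slc3a1 and Slc7a9, and for the pair that varied most, Slc6a18 and Slc15a2. Each is the 250 bases before the annotated start, from RefSeq on GRCr8, where all 10 listed genes have a promoter. Slc3a1 is at chr6:15394750-15394999 on the minus strand, Slc7a9 at chr1:97246632-97246881, Slc6a18 at chr1:31436403-31436652 and Slc15a2 at chr11:77519315-77519564, these 3 on the plus strand. Capitals mark matches on either strand to motifs of HNF1 and HNF4, transcription factors of proximal tubule and liver cells. For HNF1 the half-sites GTTAAT and ATTAAC with any 1 base between them were searched with up to 2 mismatches, and for HNF4 the letters CAAAGTCCA with up to 1.
Slc3a1: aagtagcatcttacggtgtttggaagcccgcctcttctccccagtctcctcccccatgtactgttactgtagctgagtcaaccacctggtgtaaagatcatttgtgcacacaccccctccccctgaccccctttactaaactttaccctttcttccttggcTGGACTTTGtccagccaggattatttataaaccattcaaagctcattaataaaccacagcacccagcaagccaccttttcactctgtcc
Slc7a9: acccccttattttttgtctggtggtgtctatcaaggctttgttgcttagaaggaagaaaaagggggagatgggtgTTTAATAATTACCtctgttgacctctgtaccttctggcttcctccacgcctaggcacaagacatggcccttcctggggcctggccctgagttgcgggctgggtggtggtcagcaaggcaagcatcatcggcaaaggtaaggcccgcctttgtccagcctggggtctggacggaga
Slc6a18: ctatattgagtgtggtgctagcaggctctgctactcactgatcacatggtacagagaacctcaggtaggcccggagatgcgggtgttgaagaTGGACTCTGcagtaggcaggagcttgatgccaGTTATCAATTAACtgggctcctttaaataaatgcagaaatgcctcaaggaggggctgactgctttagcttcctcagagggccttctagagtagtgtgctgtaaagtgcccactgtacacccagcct
Slc15a2: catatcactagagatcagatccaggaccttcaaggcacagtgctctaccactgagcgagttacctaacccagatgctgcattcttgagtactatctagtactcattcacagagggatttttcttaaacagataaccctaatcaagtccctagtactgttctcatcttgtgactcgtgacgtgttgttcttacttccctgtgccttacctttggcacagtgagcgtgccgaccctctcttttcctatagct

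Slc6a18 held 1 match to each motif, which did not overlap, the HNF1 match between 126 and 114 bases before the start. Slc7a9 held 1 HNF1 match and Slc3a1 1 HNF4 match without a mismatch, between 89 and 81 bases before the start. The Slc15a2 window held neither, nor did those of the other 6 listed genes. Of 33465 promoter windows of this length, 1.09% held the HNF1 motif and 7.33% the HNF4 motif, and a match is only a description of the letters.

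All 10 probe sets passed the level filter, which kept 18625 probe sets, and none had an array at the floor set on low values. No transporter passed the test between genotypes. In limma with Benjamini-Hochberg adjustment over all probe sets tested, 0 of 10 passed an adjusted p of 0.05, against 0.0215% of all probe sets, and their adjusted p lay between 0.606 and 0.778. At an unadjusted p under 0.05 there were 2 of 10, both lower in ABCC2-/- grafts, against 7.98% of all in either direction and 4.63% of all lower. Log2 differences, given as ABCC2-/- minus wild-type, were negative for 9 of 10, against 54.6% of all, with a median of -0.21 against -0.023. Negative differences were also found in 13 of 16 tested proximal tubule markers and 8 of 11 of the distal nephron. They were found in 6 of 6 of glomerulus and endothelium, 4 of 4 of blood and 2 of 2 of liver, gut and fat. Of 6 tested leukocyte markers 3 were negative. Without the 3 ABCC2-/- arrays described next the members' count was 5 of 10 and their median -0.013. With the Gapdh ratio described there as a covariate the count was 8 of 10 and the median -0.056. In no member were the genotypes without overlap, against 0.435% of all. The number of arrays limits the precision, and in tissue fewer cells of a type and less RNA per cell cannot be told apart.

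The arrays are listed in 2 runs per genotype, a new run beginning where the replicate number in the titles falls, which gave 3 arrays of each genotype in each run. The sources used here do not state what the runs stand for. They matter for these genes because 30.3% of all probe sets differed between them at an adjusted p of 0.05 in limma, and 4 of the 10 members did, all lower in run 2, against 19.0% of all lower. These were Slc3a2, the second Slc6a20a probe set, Slc6a18, with -0.64 (SE 0.18, limma adjusted p = 0.0134), and Slc15a2, with -0.81 (SE 0.25, limma adjusted p = 0.0231), as log2 differences of run 2 minus run 1 with genotype in the model. The ABCC2-/- arrays of run 2, replicates 3, 10 and 14, also stood apart from all others in the log2 ratio of the 3′ to the 5′ Gapdh control, a measure of how far labelled RNA reaches. It was 0.36 to 0.45 in these 3 and 0.71 to 0.95 in the other 9. Abcc2 was lower in every ABCC2-/- array, with a log2 difference of -2.69 (SE 0.22, exact two-sided permutation p = 0.00216). Of its ABCC2-/- arrays 1, replicate 5, was at the floor, and the size of the difference moves with the floor, from -2.83 without one to -2.22 with it at the 40th percentile.

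The cortex showed its labelled tissue. Of 18 proximal tubule markers 16 had a probe set and none was at the floor in any array. Their summed linear signal was 509 to 642 in wild-type and 507 to 568 in ABCC2-/- grafts. The summed signal of 12 distal nephron markers was 151 to 166 against 151 to 159, and Pvalb was at the floor in every array. The 6 markers of glomerulus and endothelium summed to 16.9 to 22.8 against 16.1 to 20.8, and 4 of blood to 21.5 to 57.5 against 11.9 to 50.8. The 7 markers of liver, gut and fat summed to 6.06 to 8.21 against 6.46 to 7.81. Most of that sum was Vil1, with log2 signals of 2.40 to 2.84 in wild-type and 2.47 to 2.78 in ABCC2-/- grafts. In at least 1 array 5 of the 7 were at the floor. The 8 leukocyte markers summed to 34.1 to 52.6 in wild-type grafts. In ABCC2-/- grafts they summed to 32.1 to 40.8 in run 1 and 48.0 to 59.0 in run 2. Most of this sum was Cd74, with mean log2 signals of 5.21 in wild-type and 5.29 in ABCC2-/- grafts. The next highest of the 6 tested, Csf1r, had means of 0.63 and 0.79. In at least 1 array 2 of the 8 were at the floor. The sum mostly follows Cd74, so a change in leukocyte number cannot be read from it. What part the differences in marker sums had in the results below was not tested.

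**Figure D1:**
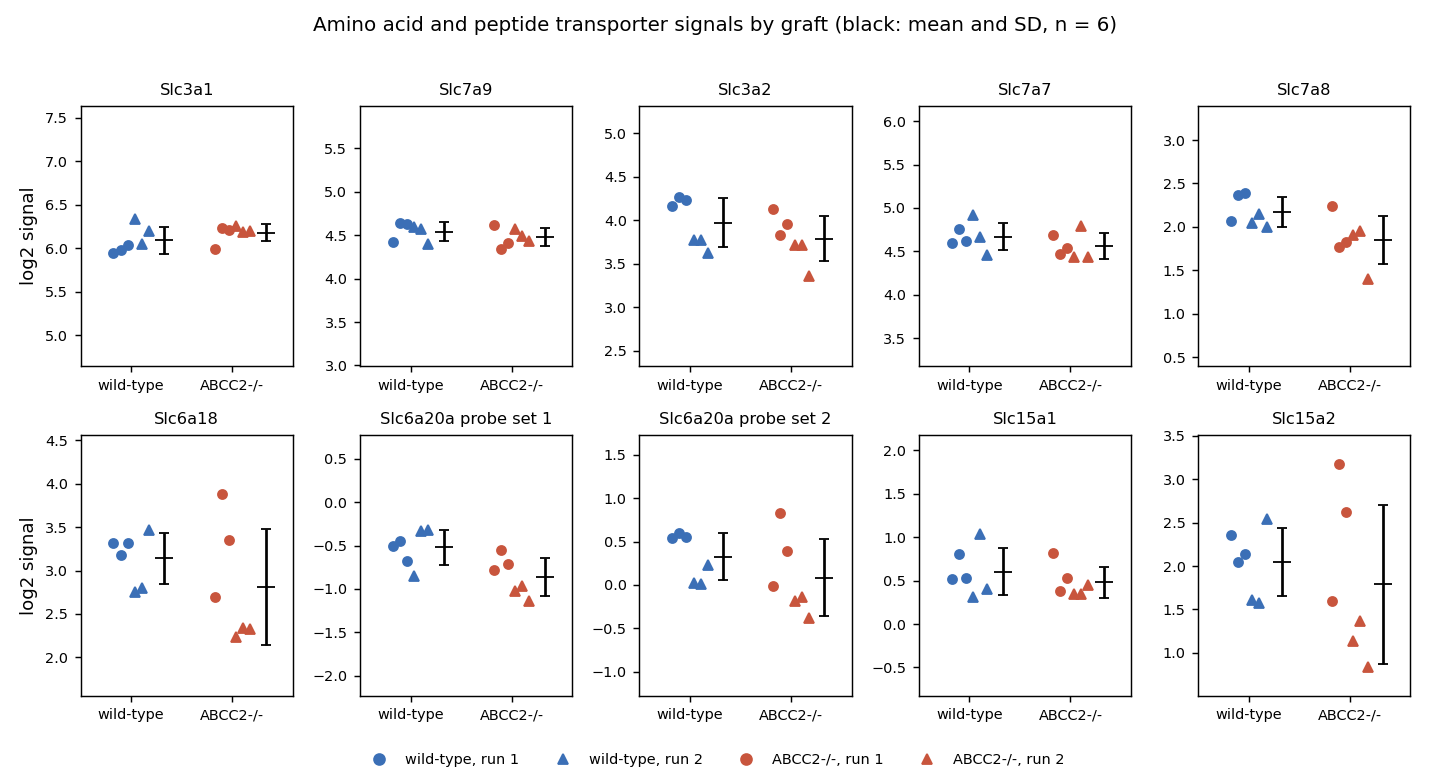
Log2 signal of each of the 10 transporter probe sets in 12 grafts, with colour for genotype, shape for listing run and black marks for the mean and SD of 6 grafts. All panels span the same log2 height, so the tight Slc3a1 and Slc7a9 points can be set against the wide spread of Slc6a18 and Slc15a2.

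The cystine carrier pair was the steadiest of the set. Slc3a1 had log2 signals of 5.94 to 6.34 in wild-type grafts, with a median of 6.04. In ABCC2-/- grafts they were 5.99 to 6.26, with a median of 6.20. The ABCC2-/- values lay inside the wild-type range. The means were 6.09 ± 0.15 (SD, n = 6) and 6.18 ± 0.10 (SD, n = 6), a log2 difference of 0.09 (SE 0.08, 95% confidence interval -0.09 to 0.26, limma adjusted p = 0.717). After quantile normalization the sign turned, with -0.070. Slc7a9 lay between 4.39 and 4.64 in wild-type grafts, median 4.58, and between 4.34 and 4.62 in ABCC2-/- grafts, median 4.46. Both groups covered nearly the same range, with a log2 difference of -0.06 (SE 0.08, interval -0.22 to 0.09, limma adjusted p = 0.762). The spread within genotypes was an SD of 0.13 for Slc3a1 and 0.11 for Slc7a9. Only 8.55% and 4.13% of tested probe sets had a smaller one. These shares are over probe sets of every signal level. Among bright genes, Pdzk1 was tighter, with an SD of 0.078 in wild-type and 0.076 in ABCC2-/- grafts. Ggt1 was wider, with 0.22 and 0.51.

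None of the 3 basolateral carrier genes passed the test between genotypes. Slc7a8, the light chain for neutral amino acids, had log2 signals of 2.07, 2.37, 2.39, 2.05, 2.15 and 1.99 in wild-type replicates 1, 6, 9, 4, 7 and 8. In ABCC2-/- replicates 5, 9, 11, 3, 10 and 14 they were 2.24, 1.76, 1.82, 1.91, 1.95 and 1.40. All but replicate 5 lay below every wild-type graft. The log2 difference was -0.32 (SE 0.12, interval -0.58 to -0.06), a signal 1.25-fold lower. Its unadjusted limma p was 0.0175, the adjusted p 0.606 and the exact two-sided permutation p 0.0325. The difference of means was of like size in each listing run, -0.33 in run 1 and -0.31 in run 2.

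Slc7a7, the light chain for dibasic amino acids, lay between 4.46 and 4.92 in wild-type grafts, median 4.64, and between 4.43 and 4.79 in ABCC2-/- grafts, median 4.50. The groups overlapped over most of their range, and the log2 difference was -0.11 (SE 0.09, interval -0.30 to 0.08, limma adjusted p = 0.689). Slc3a2, the heavy chain that both light chains need, lay between 3.62 and 4.27 in wild-type grafts, median 3.97, and between 3.36 and 4.12 in ABCC2-/- grafts, median 3.78. Its log2 difference was -0.19 (SE 0.14, interval -0.47 to 0.10, limma adjusted p = 0.658). Slc3a2 followed the listing run more than the genotype. Its means in runs 1 and 2 were 4.22 and 3.72 in wild-type grafts and 3.97 and 3.60 in ABCC2-/- grafts, a change of -0.44 (SE 0.07, limma adjusted p = 2.85e-04) from run 1 to run 2 with genotype in the model.

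The proline carrier gene was measured by 2 probe sets. The first lay between -0.85 and -0.32 in wild-type grafts, median -0.47, and between -1.14 and -0.55 in ABCC2-/- grafts, median -0.87. All 6 ABCC2-/- grafts were below the wild-type mean and 3 below every wild-type graft, those of run 2. The log2 difference was -0.34 (SE 0.13, interval -0.62 to -0.06, limma p = 0.0192 unadjusted and 0.606 adjusted, exact permutation p = 0.0260). It was -0.14 in run 1 and -0.54 in run 2. The second had medians of 0.38 and -0.075, with a log2 difference of -0.24 (SE 0.18, limma adjusted p = 0.667), and was lower in run 2 by -0.55 (SE 0.12, limma adjusted p = 0.00206). Both probe sets had a negative difference, and their r with genotype means removed was 0.60 over 12 arrays. It was 0.042 in the 6 wild-type and 0.95 in the 6 ABCC2-/- grafts. Its close relative Slc6a20b, the next gene on the chromosome and no member, had a log2 difference of -0.32 (SE 0.12, limma adjusted p = 0.606).

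Slc6a18, the carrier for glycine and other small neutral amino acids, had log2 signals of 3.32, 3.18, 3.32, 2.75, 2.80 and 3.47 in wild-type replicates 1, 6, 9, 4, 7 and 8. In ABCC2-/- replicates 5, 9, 11, 3, 10 and 14 they were 2.70, 3.88, 3.35, 2.23, 2.34 and 2.33. The highest graft of all was ABCC2-/- replicate 9, and the 4 lowest were also ABCC2-/-. The log2 difference was -0.33 (SE 0.24, interval -0.85 to 0.18, limma adjusted p = 0.657), and -0.55 without ABCC2-/- replicate 9. In run 1 it was 0.036 (limma adjusted p = 0.968) and in run 2 alone -0.70 (limma adjusted p = 0.0222), where 6.59% of all probe sets passed in either direction and 2.79% passed lower. The test of the difference between the runs gave -0.74 (SE 0.31, limma adjusted p = 0.223) and did not pass, while 2.54% of all probe sets did.

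The peptide carriers differed from each other in their spread. Slc15a1, of low affinity and high capacity, lay between 0.31 and 1.04 in wild-type grafts, median 0.52, and between 0.34 and 0.82 in ABCC2-/- grafts, median 0.42. The groups overlapped, with a log2 difference of -0.12 (SE 0.13, interval -0.39 to 0.14, limma adjusted p = 0.733). Slc15a2, of high affinity, had log2 signals of 2.35, 2.05, 2.14, 1.61, 1.58 and 2.54 in wild-type replicates 1, 6, 9, 4, 7 and 8. In ABCC2-/- replicates 5, 9, 11, 3, 10 and 14 they were 1.59, 3.17, 2.62, 1.14, 1.37 and 0.84. ABCC2-/- grafts held both the 2 highest and the 3 lowest values, and the signal ranged 5.04-fold over the 12 grafts. Its SD within genotypes of 0.70 was above that of 98.1% of tested probe sets, and that of Slc6a18, 0.52, above 93.2%. The log2 difference of Slc15a2 was -0.26 (SE 0.32, interval -0.94 to 0.43, limma adjusted p = 0.778). With 1 array left out it lay between -0.53, without ABCC2-/- replicate 9, and -0.065, without ABCC2-/- replicate 14. It was 0.28 in run 1 and -0.79 in run 2, and the difference between the runs was -1.07 (SE 0.44, limma adjusted p = 0.206).

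**Figure D2:**
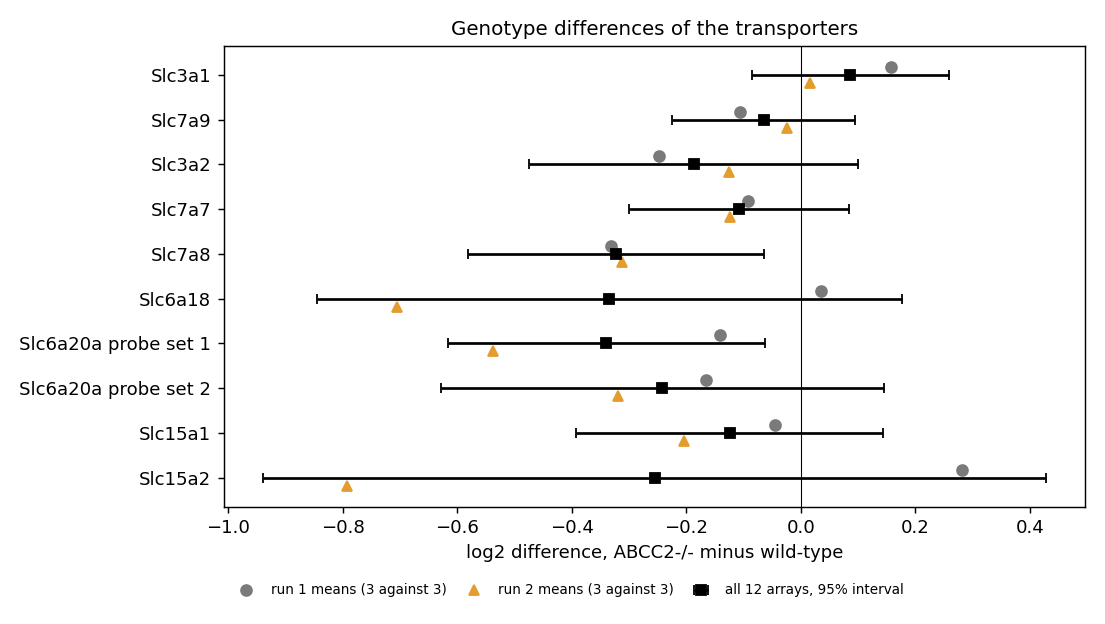
Log2 difference between genotypes for each transporter probe set, with squares and bars for the limma estimate over 12 arrays and its 95% confidence interval, and circles and triangles for the differences of means in listing runs 1 and 2. Slc7a8 is near -0.32 in both runs, while Slc15a2 is 0.28 in run 1 and -0.79 in run 2.

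Some carriers varied together from graft to graft. The widest covariation was between Slc15a2 and Slc6a18, whose log2 signals had a Pearson r of 0.98 and a Spearman rho of 0.96 over 12 arrays with genotype means removed. Among the 18615 tested probe sets that are no member, 6 had an r with Slc15a2 at or above that of Slc6a18. The r was 0.97 in the 6 wild-type and 0.98 in the 6 ABCC2-/- grafts, 0.98 in run 1 and 0.89 in run 2, and 0.98 without the 2 arrays farthest from the Slc15a2 median. The second Slc6a20a probe set followed the same course, with r of 0.90 with Slc15a2 and 0.91 with Slc6a18, though it was 0.60 and 0.69 in wild-type grafts alone. Slc15a1 did not share it, with r of -0.12 with Slc15a2. These pairs were singled out after their values were seen, are given without a test, and share array, labelling and scaling. Over all 45 pairs of member probe sets the median r was 0.096.

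Known partners were compared as pairs by permutation tests of log2 signals with genotype means removed. The permutations took no account of the listing run. Of 6 pairs fixed, the 2 with Slc6a19 could not be computed, and p-values were adjusted over the other 4. The basolateral partners Slc3a2 and Slc7a8 varied together over 12 arrays, with r = 0.79 (permutation p = 0.00146, adjusted 0.00292) and rho = 0.78 (permutation p = 0.00348, adjusted 0.00696). Within runs 1 and 2 the r was 0.91 and 0.96. Without the 2 arrays farthest from the Slc3a2 median it was 0.67 over 10 arrays (permutation p = 0.0326, adjusted 0.0741), which did not pass after adjustment. Slc3a2 and Slc7a7 had r = 0.26 (permutation p = 0.416, adjusted 0.448) and rho = 0.38 (permutation p = 0.226, adjusted 0.226). Their r was 0.92 within run 1 and 0.56 within run 2, and 0.080 without the 2 farthest arrays.

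The cystine pair Slc3a1 and Slc7a9, both with little spread to share, had r = -0.24 (permutation p = 0.448, adjusted 0.448) and rho = -0.40 (permutation p = 0.201, adjusted 0.226). Their r was -0.55 within run 1 and 0.19 within run 2, and -0.39 without the 2 farthest arrays. Slc6a18 and Cltrn moved in opposite directions. Cltrn encodes collectrin, which brings carriers of this family to the brush border. The r was -0.82 (permutation p = 0.00105, adjusted 0.00292) and rho -0.83 (permutation p = 0.00160, adjusted 0.00640), with r of -0.91 within run 1 and -0.66 within run 2. Without the 2 arrays farthest from the Slc6a18 median the r was -0.67 (permutation p = 0.0370, adjusted 0.0741), which did not pass after adjustment either. With each array centred on its median the r was -0.65 (permutation p = 0.0215, adjusted 0.0430). It was then -0.97 within run 1 and -0.49 within run 2. The range of Cltrn was narrow, with log2 signals of 5.60 to 5.88 in wild-type and 5.64 to 6.00 in ABCC2-/- grafts. A negative r of this size was not particular to partners. With Slc15a2, whose own r with Slc6a18 was 0.98, Cltrn had -0.79. So did genes that are no partners, Hpd at -0.82 and the distal nephron marker Calb1 at -0.83. Negative values with Slc15a2 were found in 9 of 36 amino acid enzymes and 6 of 11 distal nephron markers. The share of all probe sets with such an r with Slc6a18 was not computed.

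**Figure D3:**
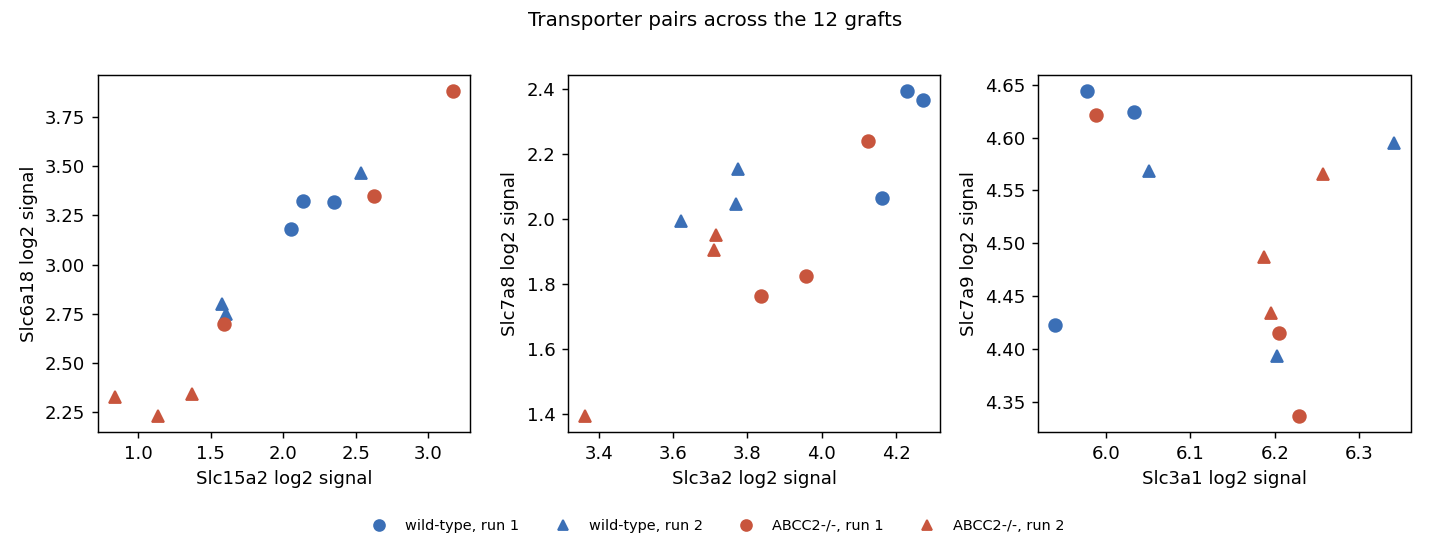
Log2 signals of Slc6a18 against Slc15a2, Slc7a8 against Slc3a2 and Slc7a9 against Slc3a1, 1 point per graft, with colour for genotype and shape for listing run, and axes scaled to each gene. The first pair lines up over both genotypes, with r = 0.98 within genotypes, and the cystine pair does not.

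Most enzymes that break peptides down at the brush border varied with Slc15a2. Of 9 tested enzymes 7 had an r with Slc15a2 above 0.8, with a median of 0.90, against 2.85% of all tested probe sets, with a median of 0.084. They are part of a list of 13 tested partners and peptidases, 8 of them above 0.8, and were set apart from its scaffolds and partners after the values were seen. Ggt1, the enzyme that opens the glutamyl bond of glutathione, had 0.98, the metalloprotease subunit genes Mep1a and Mep1b 0.98 and 0.92, and the aminopeptidase gene Anpep 0.92. Ggt1 ranged from 4.60 to 5.19 on the log2 scale in wild-type grafts and from 4.31 to 5.55 in ABCC2-/- grafts. The enzyme gene Dpep1, a dipeptidase, had -0.44. Among the partners and scaffolds Nherf1 had 0.86 and Nherf2 0.69, and Cltrn (-0.79) and Pdzk1 (-0.65) had a negative r. Of 36 amino acid enzymes 7 were above 0.8, among them the dipeptidase genes Cndp2 (0.95) and Cndp1 (0.93) and Oat, the ornithine aminotransferase (0.92), and Hpd was lowest at -0.82. Of 21 other amino acid and peptide carriers 1 was above 0.8, Slc6a13 at 0.84. Slc38a3 had 0.78 and Slc7a13, a carrier of the late proximal tubule, 0.72. In this list 12 values were positive and 9 negative, down to Slc38a7 at -0.77, with a median of 0.016. None of 16 proximal tubule markers was above 0.8, with a median r of -0.31, and Slc22a6, the organic anion uptake carrier, was lowest at -0.71. These markers did not go 1 way, with 6 positive and 10 negative and Aqp1 highest at 0.62. Of 11 distal nephron markers 1 was above 0.8, Slc12a1, the sodium, potassium and chloride carrier of the thick ascending limb, at 0.92, the same as Anpep to this precision. The other 10 ran down to Calb1 at -0.83, with a list median of -0.034. Of 6 tested leukocyte markers none was above 0.8, and the lowest were Cd74 at -0.74 and Cd68 at -0.73. These values describe 12 arrays that share 1 platform, were computed after the Slc15a2 values were seen, and carry no test. Only genotype means were removed, not those of the listing runs, between which Slc15a2 itself differed. Of the 9 enzymes, Ggt1 (-0.48, limma adjusted p = 0.0155) and Mme (-0.91, limma adjusted p = 0.00719) were lower in run 2. The other enzymes did not pass between runs. The part of the listing run in these r values was not tested.

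**Figure D4:**
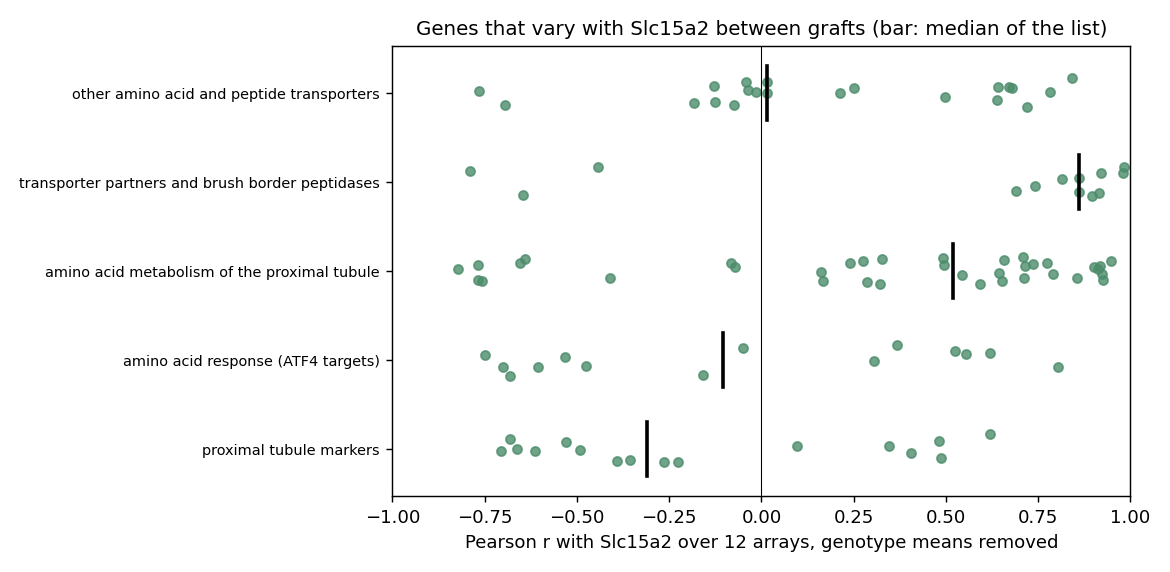
Pearson r of each tested gene with Slc15a2 over 12 arrays with genotype means removed, by gene list, with 1 point per gene and a bar at the list's median. The median is 0.86 for carrier partners and peptidases together and -0.31 for proximal tubule markers, which run from -0.71 to 0.62.

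Other genes of amino acid handling did not pass between genotypes either. Of 31 other amino acid and peptide carriers listed 21 were tested, 10 with a positive and 11 with a negative log2 difference, median -0.0070 against -0.041 over 10639 genes, and none passed. The lowest p were those of Slc15a3, a lysosomal peptide and histidine carrier, with -0.31 (SE 0.11, limma adjusted p = 0.606), and Slc1a1, the brush border carrier of glutamate, with -0.17 (SE 0.08, limma adjusted p = 0.624). In both, all 6 ABCC2-/- grafts lay below the wild-type mean. Of 13 partners and peptidases 9 had a negative difference, median -0.072, and none passed. The scaffold genes Nherf1, with -0.18 (SE 0.08, limma adjusted p = 0.617), and Nherf2, with -0.31 (SE 0.15), had the lowest p.

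Of 36 tested genes of amino acid metabolism 25 had a negative difference, median -0.067, and none passed. Cbs, the first enzyme from homocysteine to cysteine, had -0.17 (SE 0.09) and Glud1, glutamate dehydrogenase, -0.15 (SE 0.08), both with a limma adjusted p of 0.628. Of 14 tested genes of the amino acid response, which ATF4 switches on when amino acids run short, 7 were positive and 7 negative, median -0.018, and none passed. Sesn2, a leucine sensor, had -0.25 (SE 0.09, limma adjusted p = 0.606) and Chac1, which degrades glutathione, 0.32 (SE 0.17, limma adjusted p = 0.628). The 5 genes most like the mean of the member probe sets over the 12 arrays, with genotype means removed, were Tcaim, Fat1, Zfp36l2, Tle4 and Abcb6, with Pearson r between 0.97 and 0.98. None of these passed between genotypes. The mean was of unscaled log2 signals, so it leans on the members of widest spread, Slc15a2 (SD 0.70) and Slc6a18 (SD 0.52). With a median r of 0.096 over the pairs of member probe sets, it does not stand for a course that all members share.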

How the data were processed

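Per the labels' protocols, total RNA of the cortex of each graft was hybridised as biotin-labelled target to 1 Affymetrix array. The authors deposited linear intensities, 1 per probe set and array. The submitters' processing notes list MAS5 and GCOS but no version, and the sources used here state no genome build. In the deposited intensities 3.56% of all values equal the minimum of 0.01, so dim probe sets cannot be told apart there. From these, 57 control probe sets were left out, values under the pooled 20th percentile (0.0694) were raised to it, log2 of the deposited intensities was taken, and probe sets with a mean below the 40th percentile were left out. The arrays were not normalized further. Genotype was the only term of the model, which was fitted over all probe sets kept with lmFit and eBayes (trend) of limma 3.58.1, under R 4.3.3. The threshold was an adjusted p of 0.05. The model was also tested on simulated data, with each value drawn independently and without listing runs, so that test does not cover their part. Correlations used 100000 resamples.

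Genes were named through the platform annotation and the GRCr8 gene table. Lists used the probe set with the highest mean per gene. Named genes are the members, Abcc2, the 2 list genes of lowest p and the 5 most alike genes. Genes named by their r with Slc15a2, and Slc6a20b, were chosen after their values were seen. The members and lists were chosen with earlier results of these data known. Protein sequences were not used here.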

Additional observations from a re-analysis of the deposited data

Results flagged for a closer look

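In 1 of the 20 sets of 6 values formed by 10 member probe sets and 2 genotypes, a single graft stood apart from the rest of its group. Slc3a1 in ABCC2-/- replicate 5 had a log2 signal of 5.99, the lowest of its genotype, with a gap to the next graft of 0.739 of the whole range, above Dixon's 95% critical value for 6 samples. Chance flags about 1 in 20 such groups. The value lies within the wild-type range.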

How the results depend on the processing

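No paired analysis was possible because the genotypes share only 1 replicate number. With 1 array left out, all 120 member values kept their direction and stayed short of the threshold, the median log2 difference of the members lay between -0.26 and -0.11, Abcc2 between -2.82 and -2.50, and 3 to 5 of all probe sets tested passed, against 4. At least 1 such array moved the value by over 1.5 times in 8 of the 10 members, all but Slc7a8 and the first Slc6a20a probe set, among them Slc15a2 (-0.53 to -0.065), Slc6a18 (-0.55 to -0.22), the second Slc6a20a probe set (-0.39 to -0.15) and Slc15a1 (-0.19 to -0.037). Of 130 member values under 13 other settings 121 kept both. The settings of floor, filter, variance trend and listing run as a block left every member's log2 difference as it was. Direction could therefore not turn in those settings, and only the p-values could move. With the listing run as a block the members' limma adjusted p lay between 0.121 for Slc7a8 and 0.614 for Slc15a2, and none passed. That of the first Slc6a20a probe set was 0.152 and that of Slc3a2 0.166. Slc3a1 turned to -0.070 with quantile normalization, and Slc15a2 to 0.16 with the Gapdh ratio as a covariate. In run 1 alone Slc6a18 was 0.036 and Slc15a2 0.28. Without the 3 ABCC2-/- arrays of run 2, a choice made after seeing the data, Slc3a2 was 0.0015, Slc6a18 0.17, the second Slc6a20a probe set 0.073 and Slc15a2 0.42. Slc6a18 passed in run 2 alone, at -0.70, where the Gapdh ratio separated the genotypes as well. Over all probe sets, 2 passed with the filter at the 60th percentile, 112 with the listing run as a block and 1227 in run 2 alone. Without the 2 arrays farthest from the median the correlation was 0.67 for Slc3a2 and Slc7a8 and -0.67 for Slc6a18 and Cltrn. With each array centred on its median these correlations were 0.82 and -0.65. The cause of these changes was not tested. The deposited values hold no background measure per probe set, and 6 arrays per genotype limit the precision.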
